A study of Mus musculus with 4 samples.

Results

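The small subunit of the cytosolic ribosome is built from 1 ribosomal RNA and a set of proteins that each have their own gene. The genes described here were the 27 listed small-subunit protein genes together with Rps3a1, 28 genes of the 23312 in each expression table, taken by name, in a list drawn up with earlier results of these data known. All 28 were found in the tables, and 27 of them reached a mean of 1 FPKM over the libraries and were tested. The exception was Rps13. A further 4 small-subunit genes in the tables were outside the list.

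Ribosomal protein genes are housekeeping genes that are transcribed in every growing cell and held in step with one another. Most of their mRNAs begin with a C followed by a run of pyrimidines, the terminal oligopyrimidine (TOP) motif, through which mTOR signalling and the La-related protein Larp1 control their translation and stability. The small subunit binds mRNA and initiation factors and decodes codons, and early B-lineage cells need a high output of ribosomes when they expand after heavy chain rearrangement. In mammals most ribosomal protein genes have many processed pseudogenes, copies of the spliced mRNA inserted elsewhere in the genome.

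RNA sequencing was done on B220+CD43+ pro-B cells, early B-lineage cells, from the bone marrow of C57BL/6 mice. The Cnot3 fl/fl group had loxP-flanked alleles of Cnot3 and the Cnot3 +/+ group had wild-type alleles, with 2 libraries per genotype, each from 1 mouse. All mice of both groups carried RERTCre, a Cre recombinase that tamoxifen activates in all cells that make it and not in B cells alone, and all received 1 mg tamoxifen on days 1, 2, 4 and 7 before analysis on day 10. No source used here gives the ages of the mice. The Cnot3 protein belongs to the CCR4-NOT complex, which shortens the poly(A) tails of mRNAs, and the comparison asks which transcripts differ when it is deleted.

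The values were FPKM, numbers of fragments scaled by transcript length and library size, and the files used here hold no read counts, so absolute depth is unknown. Relative depth, estimated from the steps between low values, was 0.956 and 1 in the Cnot3 fl/fl libraries, against 0.746 and 0.897 in the Cnot3 +/+ libraries. Cnot3 itself measured 39.0 and 40.3 FPKM in mice labelled Cnot3 fl/fl, against 41.6 and 39.3 FPKM in Cnot3 +/+ mice. A whole-gene level is no check on the deletion of some exons, so every direction given here is between libraries as labelled. Cnot3 +/+ replicate 1 stood apart in sex-linked genes, with the Y-linked Eif2s3y at 29.3 FPKM and Xist at 0.0242 FPKM, whereas Xist was between 54.3 and 63.1 FPKM in the other 3 libraries.

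Markers of other bone marrow cells were present in all 4 libraries beside those of pro-B cells, and no marker of these lists was at 0 throughout. Summed FPKM of 16 pro-B markers, the most abundant being Ptprc, Dntt and Spn, was 1358 and 1297 in Cnot3 fl/fl mice, against 1521 and 1866 in Cnot3 +/+ mice. Of the 16, 6 fell and 0 rose (limma, adjusted p under 0.05). Over all genes tested, the background for each marker list, 3.28% fell and 6.22% rose. For 12 plasmacytoid dendritic cell markers, led by Bst2, Irf8 and Ly6d, the sum was 9049 and 10644 FPKM in Cnot3 fl/fl mice, against 11400 and 10876 FPKM in Cnot3 +/+ mice, with 1 higher and 1 lower. This sum was far above the pro-B sum in each library. Bst2, Irf8 and Ly6d ranked 5, 10 and 16 by mean level among all genes. Sums over different genes do not count cells. For 8 classical dendritic cell markers it was 572.3 and 727.0 FPKM in Cnot3 fl/fl mice, against 493.5 and 502.0 FPKM in Cnot3 +/+ mice, with 2 higher and 1 lower. For 12 T and NK cell markers it was 1149 and 953.4 FPKM in Cnot3 fl/fl mice, against 964.1 and 909.1 FPKM in Cnot3 +/+ mice, with 2 higher. For 11 neutrophil and monocyte markers it was 541.7 and 516.5 FPKM in Cnot3 fl/fl mice, against 418.9 and 462.5 FPKM in Cnot3 +/+ mice, with 3 higher. For 10 erythroid markers, of which 5 were tested, it was 118.5 and 126.8 FPKM in Cnot3 fl/fl mice, against 158.9 and 184.3 FPKM in Cnot3 +/+ mice, with 1 lower. The part of these cells in the differences below was not tested, and in these bulk libraries fewer cells of a type and less RNA per cell cannot be told apart.

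Start sequences are shown because the TOP motif lies at the first base of the mRNA. In the RefSeq promoter table of build GRCm38.p6, 24 of the 28 genes were matched. Each line holds the 15 bases before the annotated start and the 15 bases from it, 5′ to 3′ on the gene's strand, with the longest run of C and T in capitals. The first 2 genes have a TOP start, the next 3 do not and were lower in Cnot3 fl/fl as well, Rps9 had the highest level, and Fau had the longest run. In Rps15a the capitals lie wholly before the annotated start, and its TOP start is the lower-case C and T bases from the start on.
Rps18 (chr17:33955651-33955680, minus strand): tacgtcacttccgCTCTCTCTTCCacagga
Rps15a (chr7:118116133-118116162, minus strand): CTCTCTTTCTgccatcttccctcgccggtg
Rps24 (chr14:24490663-24490692, plus strand): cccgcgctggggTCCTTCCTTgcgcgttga
Rps26 (chr10:128626492-128626521, minus strand): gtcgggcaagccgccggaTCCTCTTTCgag
Rps2 (chr17:24720048-24720077, plus strand): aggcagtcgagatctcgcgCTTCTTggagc
Rps9 (chr7:3704026-3704055, plus strand): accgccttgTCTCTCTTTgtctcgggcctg
Fau (chr19:6057932-6057961, plus strand): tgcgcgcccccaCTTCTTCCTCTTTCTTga

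By the annotated starts, 7 of the 24 genes (29.2%) began with a C followed by at least 4 further C or T, against 3.01% of the 27025 genes in the table. A gene with several annotated starts was counted when any of them matched. The 7 were Fau, Rps6, Rps10, Rps15a, Rps18, Rps21 and Rps27. A run of at least 8 C or T within 25 bases of the start was present in 11 of the 24 (45.8%), against 22.3% of all genes. An annotated start that is off by a few bases hides a TOP start, so the share is a count over these annotations and not over the mRNAs in the cells. Within the 300 bases around the start, searched on both strands, the ETS motif CCGGAAG occurred in 10 of the 24 genes (41.7%, against 9.93% of all genes) and the YY1 motif AAGATGGC in 3 (12.5%, against 3.19%). The TATA box TATAAA occurred in 2 (8.33%, against 15.7%), the E-box CACGTG in 1 (4.17%, against 8.09%) and the CRE motif TGACGTCA in 2 (8.33%, against 2.03%). Large-subunit genes had CCGGAAG in 41.2% and a TOP start in 20.6% of 34 matched genes. CCGGAAG and AAGATGGC can share the letters AAG. A match of letters is a description of these windows and shows no binding.

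Most small-subunit genes had lower values in the Cnot3 fl/fl libraries. Among the 27 tested, 7 were called lower, 0 higher and 20 neither (limma, Benjamini-Hochberg adjusted p under 0.05 over 11017 genes). These 7 are 25.9% of the tested members, whereas 3.28% of all genes tested were lower and 6.22% were higher. At an unadjusted limma p under 0.05, 20 of the 27 were lower and 0 higher, against 15.3% of all genes that were lower. The median log2 fold change was -0.55 over the 27 genes (quartiles -0.80 and -0.41) and -0.01 over all genes tested, and 26 of the 27 had a negative value. In 25 of the 27 the higher Cnot3 fl/fl library was still below the lower Cnot3 +/+ library, which held for 31.7% of all genes tested.

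The 7 calls depended on all 4 libraries, on the filter and on how the variance was estimated. With any single library left out limma called 0 of the 27, and the number lower at an unadjusted p under 0.05 was then 12 or 19 when replicate 1 or 2 of Cnot3 fl/fl was omitted, and 16 or 12 when replicate 1 or 2 of Cnot3 +/+ was omitted. The log2 fold change was negative in 26 of the 27 under each of these 4 omissions. For the 25 genes whose genotypes did not overlap this sign was fixed in advance, so it adds nothing to the lack of overlap. With no filter on low values 0 members were called, and 15 were lower at an unadjusted p under 0.05. Without the trend of variance on level 2 were called, Rps2 and Rps19. The smallest p that an exact permutation test of 1 gene in 2 against 2 libraries allows is 0.333. The limma p-values rest on the spread between these 4 mice and on a variance trend fitted over all genes tested.

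**Figure D1:**
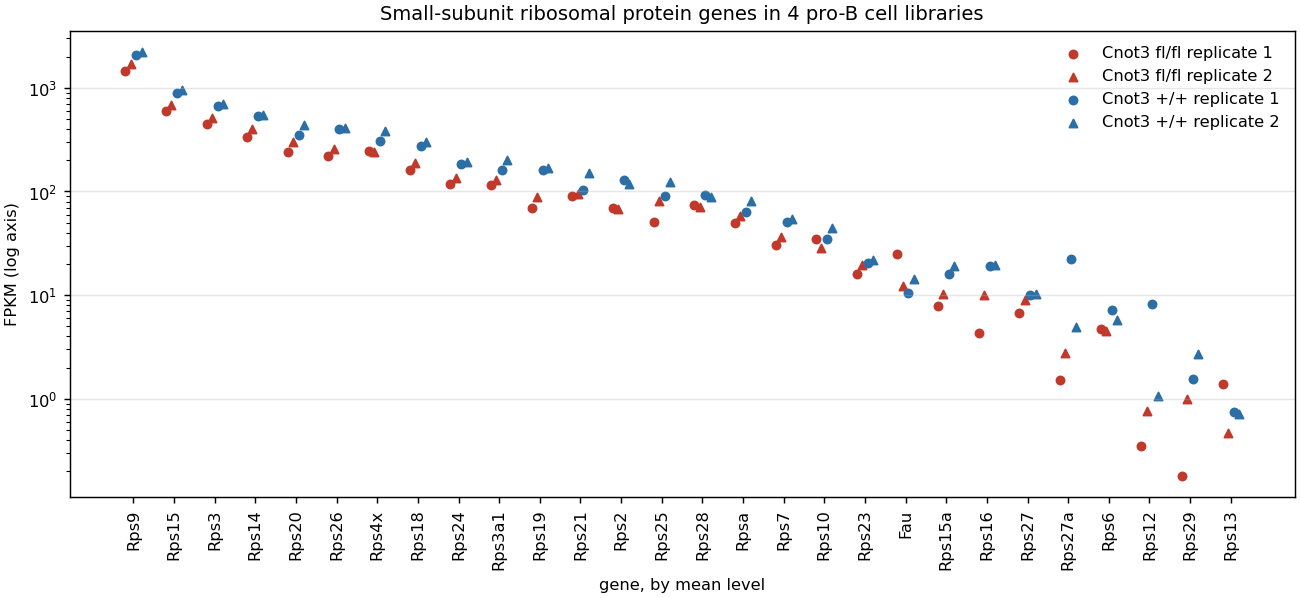
FPKM (log axis) of each of the 28 small-subunit genes in the 4 libraries, ordered by mean level; red points are Cnot3 fl/fl and blue points Cnot3 +/+ libraries, with circles for replicate 1 and triangles for replicate 2. The red points lie below the blue ones for most genes from Rps9, at 1438 to 2192 FPKM, down to Rps29, at 0.182 to 2.72 FPKM, and replicates over 2-fold apart occur only from Fau rightwards.

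The plot of levels by library spans a 2242-fold range of mean FPKM, although a ribosome holds these proteins in equal numbers. The mean over the 4 libraries was at least 100 FPKM for 12 of the 28 genes and under 10 FPKM for 6. Rps9, an early-binding assembly protein of the body, held 32.3% and 33.1% of the summed small-subunit FPKM in Cnot3 fl/fl libraries and 31.1% and 30.3% in Cnot3 +/+ libraries. The 5 highest genes, Rps9, Rps15, Rps3, Rps14 and Rps20, held between 66.6% and 70.0% in each library.

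Together the small-subunit genes made up less of the Cnot3 fl/fl profiles. Their summed FPKM was 1.10% and 1.18% of the library sum in Cnot3 fl/fl and 1.57% and 1.65% in Cnot3 +/+, a ratio of 0.709, or 0.688 without Rps9. The large-subunit genes made up 1.25% and 1.34% in Cnot3 fl/fl and 1.96% and 2.01% in Cnot3 +/+ libraries. The ratio of small-subunit to large-subunit FPKM was 0.882 and 0.879 in Cnot3 fl/fl and 0.798 and 0.820 in Cnot3 +/+ libraries, so both Cnot3 fl/fl libraries lay above both Cnot3 +/+ libraries. The Cnot3 fl/fl value was 1.09 times the Cnot3 +/+ value, and 1.06 times without Rps9. An exact permutation test of this ratio cannot pass in 2 against 2 libraries.

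**Figure D2:**
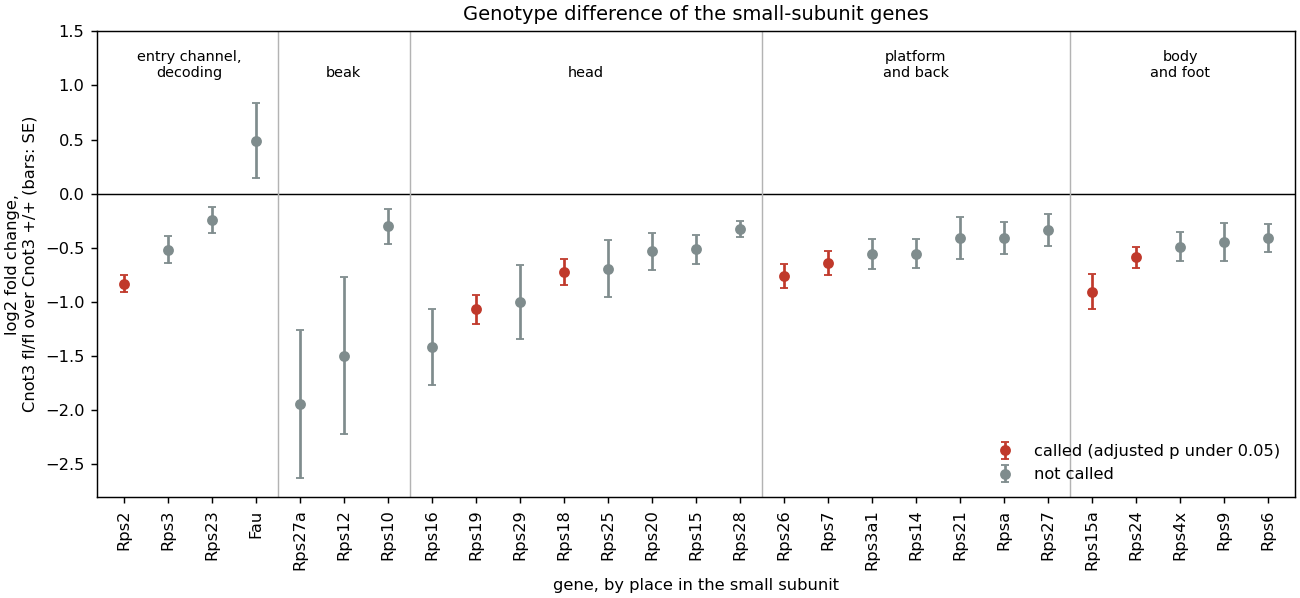
Log2 fold change (Cnot3 fl/fl over Cnot3 +/+, on the log2(FPKM + 1) scale) of the 27 tested genes with its standard error, grouped by place in the small subunit; red points passed the limma test and grey points did not. Every point except Fau lies below 0, and the widest bars belong to Rps27a, Rps12, Rps16, Rps29 and Fau.

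At the mRNA entry channel and decoding centre, 1 of 4 genes fell, against 3.28% of all genes tested. Rps2, which lines the entry channel, measured 69.2 and 68.3 FPKM in Cnot3 fl/fl mice, against 127.9 and 118.7 FPKM in Cnot3 +/+ mice. The genotypes did not overlap, and the replicates of each lay close together. Its log2 fold change was -0.83 and its standard error 0.08, and the limma adjusted p of 0.0244 was the smallest among the members. Rps3, another entry channel protein that also binds damaged DNA, measured 446.2 and 510.3 FPKM in Cnot3 fl/fl mice, against 664.7 and 702.6 FPKM in Cnot3 +/+ mice. The genotypes did not overlap, but the log2 fold change of -0.52 did not pass (adjusted p = 0.0672 by limma). Rps23, at the decoding centre, averaged 17.8 ± 2.46 FPKM in Cnot3 fl/fl mice, against 21.2 ± 1.02 FPKM in Cnot3 +/+ mice (SD, n = 2 each).

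Fau was the only one of the 27 tested genes with a positive log2 fold change. It encodes a ubiquitin-like protein fused to a small-subunit protein and measured 24.9 and 12.4 FPKM in Cnot3 fl/fl mice, against 10.5 and 14.3 FPKM in Cnot3 +/+ mice. The genotypes overlapped, Cnot3 fl/fl replicate 1 was the one high library, and the log2 fold change of 0.49, which was 0.01 without that library, did not pass (adjusted p = 0.374 by limma).

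Of the 3 genes of the beak, a protrusion of the head, 0 passed (limma). At an unadjusted limma p under 0.05, 1 was lower, against 15.3% of all genes tested. Rps27a, which encodes ubiquitin fused to a beak protein, measured 1.52 and 2.75 FPKM in Cnot3 fl/fl mice, against 22.4 and 4.94 FPKM in Cnot3 +/+ mice. The genotypes did not overlap, but the Cnot3 +/+ libraries were 4.53-fold apart, so the log2 fold change of -1.94 had a standard error of 0.68 (adjusted p = 0.127 by limma). Without Cnot3 +/+ replicate 1 it was -0.95. Rps12 was similar, with 0.350 and 0.766 FPKM in Cnot3 fl/fl mice, against 8.14 and 1.07 FPKM in Cnot3 +/+ mice. The same library was the high one, and the log2 fold change of -1.50 became -0.43 without it. Rps10, the third beak gene, averaged 31.7 ± 4.17 FPKM in Cnot3 fl/fl mice, against 39.4 ± 6.90 FPKM in Cnot3 +/+ mice (SD, n = 2 each), with overlapping libraries.

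In the rest of the head, 2 of 8 genes fell, against 3.28% of all genes tested. The Cnot3 fl/fl libraries lay below the Cnot3 +/+ libraries without overlap in all 8, and in 31.7% of all genes tested. Rps19, a maturation factor of small-subunit rRNA and the gene most often mutated in human Diamond-Blackfan anaemia, measured 69.1 and 88.0 FPKM in Cnot3 fl/fl mice, against 160.3 and 169.1 FPKM in Cnot3 +/+ mice. Its mean in Cnot3 fl/fl was 0.477 times that in Cnot3 +/+ libraries, with a log2 fold change of -1.07 and a standard error of 0.14 (adjusted p = 0.0357 by limma). Rps18, which forms a bridge to the large subunit, measured 159.4 and 189.2 FPKM in Cnot3 fl/fl mice, against 276.0 and 299.8 FPKM in Cnot3 +/+ mice. The log2 fold change of this TOP gene was -0.72 with a standard error of 0.12 (adjusted p = 0.0419 by limma).

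The other head genes had negative values that did not pass. Rps15, whose tail reaches towards the decoding site, measured 594.0 and 687.8 FPKM in Cnot3 fl/fl mice, against 882.0 and 945.4 FPKM in Cnot3 +/+ mice (log2 fold change -0.51, adjusted p = 0.0787 by limma). Rps16, whose tail contacts the tRNA in the peptidyl site, measured 4.32 and 10.0 FPKM in Cnot3 fl/fl mice, against 19.2 and 19.6 FPKM in Cnot3 +/+ mice. Here the Cnot3 fl/fl libraries were the ones far apart, and the log2 fold change of -1.42 (adjusted p = 0.0713 by limma) was -0.89 without Cnot3 fl/fl replicate 1. Rps28, next to the mRNA exit, averaged 72.3 ± 1.91 FPKM in Cnot3 fl/fl mice, against 90.7 ± 2.37 FPKM in Cnot3 +/+ mice (SD, n = 2 each). Its log2 fold change of -0.32 was small but its spread was too, and it came nearest to the threshold among the genes that did not pass (adjusted p = 0.0624 by limma). With the trend of the log2 values on coding length removed it was -0.01 (adjusted p = 0.946 by limma). Rps20 had a log2 fold change of -0.53. That of Rps25 was -0.69, but -0.37 without Cnot3 fl/fl replicate 1 and -1.01 with that library kept and replicate 2 left out. The zinc-binding Rps29 measured 0.182 and 1.01 FPKM in Cnot3 fl/fl mice, against 1.56 and 2.72 FPKM in Cnot3 +/+ mice.

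On the platform, the mRNA exit side and the back, 2 of the 7 genes tested fell, against 3.28% of all genes tested. All 7 had Cnot3 fl/fl libraries below the Cnot3 +/+ libraries without overlap, as did 31.7% of all genes tested. Rps26, which lies at the mRNA exit channel, measured 221.7 and 256.4 FPKM in Cnot3 fl/fl mice, against 401.1 and 407.4 FPKM in Cnot3 +/+ mice. Its log2 fold change was -0.76 with a standard error of 0.11 (adjusted p = 0.0396 by limma). Rps7, which is needed to process the small-subunit rRNA, measured 30.8 and 36.8 FPKM in Cnot3 fl/fl mice, against 51.4 and 54.7 FPKM in Cnot3 +/+ mice. Its log2 fold change was -0.64 with a standard error of 0.11 (adjusted p = 0.0424 by limma), and both genes are also mutated in human Diamond-Blackfan anaemia.

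Rps14, a platform protein whose human gene is lost in the anaemia of the 5q- syndrome, averaged 368.6 ± 49.0 FPKM in Cnot3 fl/fl mice, against 539.0 ± 5.34 FPKM in Cnot3 +/+ mice (SD, n = 2 each; log2 fold change -0.55, adjusted p = 0.0656 by limma). Rps3a1, also of the platform, measured 116.0 and 128.6 FPKM in Cnot3 fl/fl mice, against 161.6 and 201.2 FPKM in Cnot3 +/+ mice, with a log2 fold change of -0.56 that did not pass (adjusted p = 0.0690 by limma). Rpsa, also known as the laminin receptor precursor, Rps21 and the zinc finger gene Rps27 had log2 fold changes of -0.41, -0.41 and -0.34. Leaving out 1 library moved each by more than 1.5 times, with a range of -0.58 to -0.24 in Rpsa and -0.68 to -0.14 in Rps21, set by the Cnot3 +/+ libraries (weakest without replicate 2), and of -0.52 to -0.15 in Rps27, set by the Cnot3 fl/fl libraries (weakest without replicate 1). Rps13 measured 1.39 and 0.465 FPKM in Cnot3 fl/fl mice, against 0.744 and 0.713 FPKM in Cnot3 +/+ mice. It overlapped between the genotypes and was not tested.

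In the body and foot, 2 of 5 genes fell, against 3.28% of all genes tested. All 5 were lower in Cnot3 fl/fl without overlap between the genotypes, as were 31.7% of all genes tested. Rps24, which is needed to process the small-subunit rRNA, measured 117.8 and 133.9 FPKM in Cnot3 fl/fl mice, against 185.4 and 193.3 FPKM in Cnot3 +/+ mice (log2 fold change -0.59, standard error 0.10, adjusted p = 0.0421 by limma). Rps15a, a TOP gene by its annotated start, measured 7.79 and 10.3 FPKM in Cnot3 fl/fl mice, against 16.1 and 19.2 FPKM in Cnot3 +/+ mice (log2 fold change -0.90, standard error 0.16, adjusted p = 0.0429 by limma). It was the lowest in level of the 7 genes that fell. Rps9 measured 1438 and 1706 FPKM in Cnot3 fl/fl mice, against 2081 and 2192 FPKM in Cnot3 +/+ mice, a log2 fold change of -0.45 that did not pass (adjusted p = 0.154 by limma). In the files' mm9 coordinates Rps9 lies on chromosome 7 from 3655642 to 3658499, 26.5 kb from Cnot3 with 2 loci between them.

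Rps6, the protein that S6 kinases phosphorylate, measured 4.70 and 4.51 FPKM in Cnot3 fl/fl mice, against 7.16 and 5.78 FPKM in Cnot3 +/+ mice (log2 fold change -0.41, adjusted p = 0.112 by limma). The X-linked Rps4x averaged 243.6 ± 4.85 FPKM in Cnot3 fl/fl mice, against 344.4 ± 53.7 FPKM in Cnot3 +/+ mice (SD, n = 2 each), with a log2 fold change of -0.49 (adjusted p = 0.0849 by limma).

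**Figure D3:**
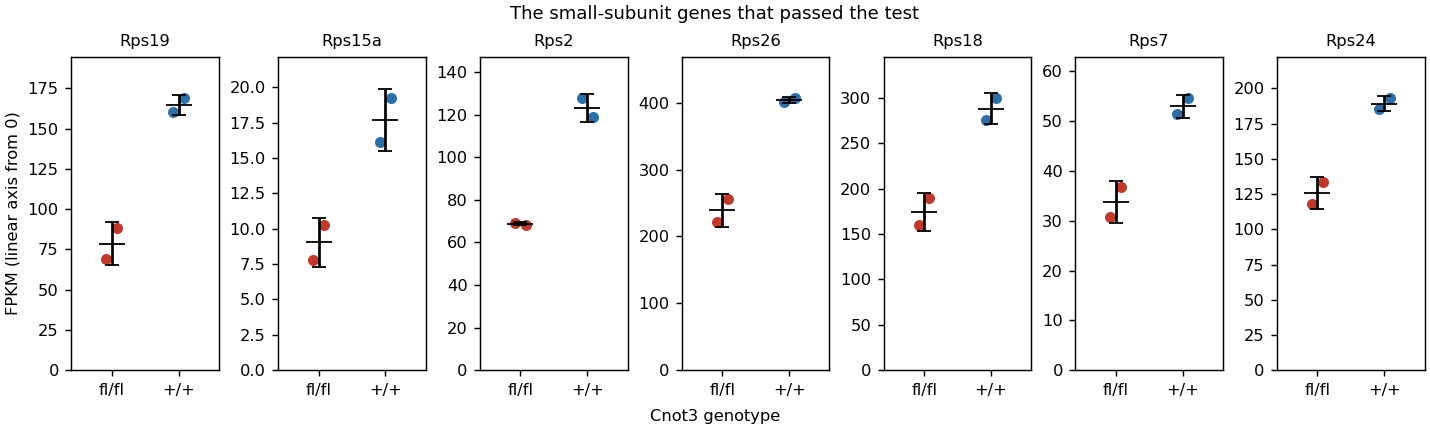
FPKM of the 7 small-subunit genes that passed the limma test, 1 panel per gene with a linear axis from 0; red points are Cnot3 fl/fl and blue points Cnot3 +/+ libraries, and the black bars give the mean ± SD (n = 2 each). In each panel both Cnot3 fl/fl points lie below both Cnot3 +/+ points, from 69.1 and 88.0 against 160.3 and 169.1 FPKM in Rps19 to 117.8 and 133.9 against 185.4 and 193.3 FPKM in Rps24.

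The panels of the 7 genes show changes of similar size at very different levels. Their log2 fold changes lay between -1.07 and -0.59, and their mean over the 4 libraries ran from 13.4 FPKM in Rps15a to 321.6 FPKM in Rps26. The authors' deposited table marked 8 members as significant, all lower in Cnot3 fl/fl, whereas 1.31% of its 23312 genes were marked lower. It shared 6 with the limma calls. Rps16 and Rps27a were marked only there, with q-values of 0.00900 and 0.00223 in the authors' deposited table, and Rps7 was called only by limma, with a q-value of 0.0723 in the authors' deposited table. Both sets of calls rest on the same 4 libraries.

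How far a gene can be measured apart from its copies differs among these genes. Coding sequences from GENCODE M21 (GRCm38) were cut into all windows of 50 bases, and each window was sought on both strands in the annotated transcripts of other loci. The 4 windows below are coding sequence, 5′ to 3′, and were picked by opposite rules. For Rps2 and Rps12 the window found at the most other loci is shown. For Rps3 and Rps9 it is the first window found at no other locus. Rps2 also had windows found at 0 other loci, and Rps9 shared 43.0% of its windows, against 8.09% in Rps3.
Rps2, coding bases 653 to 702, chromosome 17, found at 33 other loci: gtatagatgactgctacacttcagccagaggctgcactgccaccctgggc
Rps12, coding bases 329 to 378, chromosome 10, found at 21 other loci: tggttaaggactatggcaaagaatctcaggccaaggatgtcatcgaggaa
Rps3, coding bases 1 to 50, chromosome 7, found at 0 other loci: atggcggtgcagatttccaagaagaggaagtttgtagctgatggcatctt
Rps9, coding bases 1 to 50, chromosome 7, found at 0 other loci: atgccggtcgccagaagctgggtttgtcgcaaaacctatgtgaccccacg

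The members' median was 89.2% of windows shared, against 0% for 10540 genes tested, and 24 of the 28 shared over 50% of their windows, against 4.22% of the tested genes. Rps2 shared windows with 71 other loci, all annotated as pseudogenes, Rpsa with 28 and Rps12 with 23. In 10 genes every window was shared, namely Rps6, Rps12, Rps13, Rps16, Rps23, Rps27, Rps27a, Rps28, Rps29 and Fau. Their levels were 0.827 to 81.5 FPKM with a median of 8.44 FPKM. The 5 genes with under 60% shared, Rps3, Rps9, Rps14, Rps15 and Rps21, were at 110.0 to 1854 FPKM with a median of 580.9 FPKM. Over the 28 genes level and percent shared had a Spearman correlation of -0.84, given as a description, since these genes share libraries and are short alike. How the authors assigned reads that match several loci is stated in no source used here, and its part in the range of levels was not tested.

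**Figure D4:**
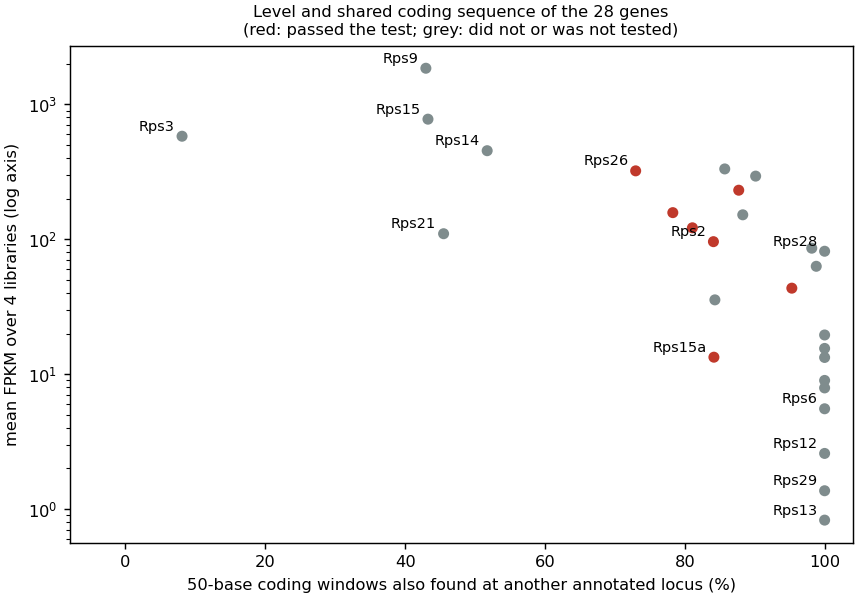
Mean FPKM over 4 libraries (log axis) of each of the 28 genes against the percent of its 50-base coding windows that also occur at another annotated locus; red points passed the limma test for lower levels in Cnot3 fl/fl. Levels fall with the percent shared, and the 7 red points lie between 73.0% and 95.3%.

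The genotype difference did not follow the shared windows as the level did. In the plot of level against shared windows the genes that fell lie in the middle. They were 7 of the 13 genes between 60% and 100% shared, against 3.28% of all genes tested. The 13 had a median log2 fold change of -0.64. Of the 5 genes under 60% shared 0 passed (limma; 3 at an unadjusted p under 0.05), and their log2 fold changes lay between -0.55 and -0.41. Of the 9 tested genes with all windows shared 0 passed (limma; 5 at an unadjusted p under 0.05), with values between -1.94 and 0.49 and a median of -0.41. Over the 27 genes the log2 fold change and the percent shared had a Spearman correlation of 0.02. Replicates more than 2-fold apart occurred in 5 members in Cnot3 fl/fl and in 2 members in Cnot3 +/+ libraries.

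Of 5 annotated copies and paralogues tested, 1 fell and 0 rose (limma), whereas 3.28% of all genes tested fell and 6.22% rose. Rps15a-ps4, a pseudogene of Rps15a, measured 66.9 and 70.3 FPKM in Cnot3 fl/fl mice, against 99.9 and 107.2 FPKM in Cnot3 +/+ mice, a log2 fold change of -0.59 that passed (adjusted p = 0.0368 by limma). Its mean level of 86.1 FPKM was above the 13.4 FPKM of Rps15a itself, and reads of the pair cannot be told apart where their sequences are the same. Rps15a-ps6 and Rps19-ps3 overlapped between the genotypes and did not pass. Rps27l, an expressed paralogue of Rps27, lay between 31.8 and 36.0 FPKM in the 4 libraries with overlapping genotypes, and its log2 fold change was -0.03 (adjusted p = 0.876 by limma). Rps4y2 averaged 44.7 ± 18.1 FPKM in Cnot3 fl/fl mice, against 25.6 ± 10.9 FPKM in Cnot3 +/+ mice (SD, n = 2 each), with overlapping libraries.

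Short genes, abundant genes and genes with shared windows were each called lower in Cnot3 fl/fl libraries more often than other genes tested. Of 1428 tested genes under 200 codons, 9.31% were lower, with a median log2 fold change of -0.17, against 2.87% of genes of 200 to 400 codons and 2.03% of longer ones. Of the members, which ran from 56 to 295 codons, 21 tested ones were in the short class and 6 of those fell. Without ribosomal protein genes 8.51% of the short genes were lower. Of genes at 100 FPKM or more, 6.67% were lower and 5.9% higher, and 4 of the 12 members in that class fell. Without ribosomal protein genes 5.57% of these abundant genes were lower and 6.1% higher, against 3.28% and 6.22% of all genes tested. Of 381 genes with over 50% of windows shared that are no ribosomal protein genes, 8.14% were lower and 0.787% higher. Among genes with no shared window 2.8% were lower and 6.84% higher. With the trend of the log2 values on coding length removed in each library, 8 of the 27 members fell, Rps3 being added, with a median of -0.48, while 436 of 10547 genes were lower. Among the short members Rps28, Rps27, Rps21 and Rps23 the log2 fold changes became -0.01, -0.07, -0.14 and -0.10, against -0.32, -0.34, -0.41 and -0.24 without this step.

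**Figure D5:**
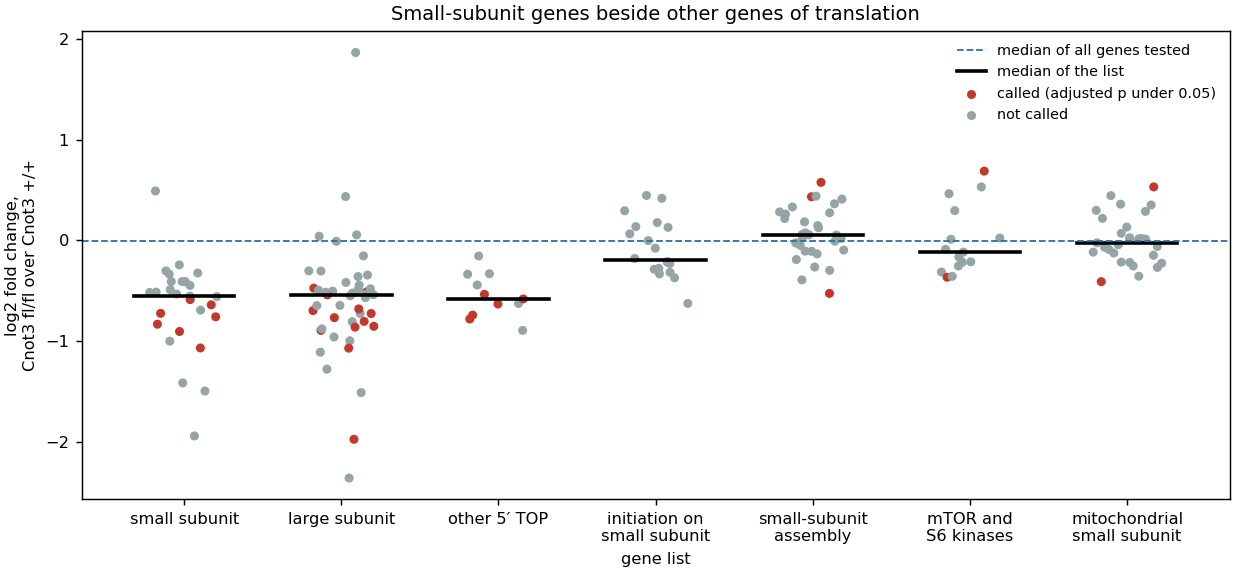
Log2 fold change (Cnot3 fl/fl over Cnot3 +/+, log2(FPKM + 1) scale) of each tested gene in 7 lists of translation genes; red points passed the limma test, thick bars are list medians and the dashed line is the median of all genes tested, -0.01. The medians of the small-subunit, large-subunit and other TOP genes lie at -0.55, -0.55 and -0.58, and those of the other 4 lists between -0.19 and 0.06.

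The plot of 7 gene lists sets the small-subunit genes beside their partners in translation. Of 46 large-subunit genes 13 fell (28.3%) and 0 rose (limma), whereas 3.28% of all genes tested fell and 6.22% rose. Their median log2 fold change was -0.55, like that of the small subunit. An unadjusted limma p under 0.05 in either direction was reached by 32 of the 46, against 3722 of all 11017 genes tested. The large-subunit genes with the smallest p were Rpl23a, Rpl22, Rpl13 and Rpl15, with log2 fold changes of -1.97, -0.80, -0.70 and -0.89. Of 11 other genes whose mRNAs are known to carry a TOP motif, 5 fell (45.5%), 0 rose and the median was -0.58. The 4 with the smallest p were the elongation factor subunit gene Eef1g, the poly(A)-binding protein gene Pabpc1, Hnrnpa1 and Nap1l1. Eef1g measured 36.0 and 34.9 FPKM in Cnot3 fl/fl mice, against 61.5 and 61.8 FPKM in Cnot3 +/+ mice.

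Genes that build or use the small subunit without being part of it had medians nearer 0. Of 31 small-subunit assembly factors 2 rose, 1 fell (3.23%) and the median was 0.06. Over all genes tested 6.22% rose and 3.28% fell, so calls in this list were about as frequent as elsewhere. The early processome genes Wdr3 and Mphosph10 rose, with log2 fold changes of 0.58 and 0.43, and the rRNA methyltransferase gene Emg1 fell, with -0.53. Of 20 initiation factor genes that act on the small subunit 0 passed (limma), and the median was -0.19. In either direction, 8 of the 20 had an unadjusted limma p under 0.05, against 3722 of all 11017 genes tested. Among 15 genes of the mTOR and S6 kinase pathway, the elongation factor kinase gene Eef2k rose (log2 fold change 0.69), Eif4ebp2, which encodes a translational repressor, fell (-0.37), and 13 did not pass. Of 29 genes of the mitochondrial small subunit, Mrps16 rose (0.53), Mrps12 fell (-0.41) and the median was -0.02. The 1 gene that fell is 6.67% of the mTOR and S6 kinase list and 3.45% of the mitochondrial list, against 3.28% of all genes tested. That these lists differ from the small-subunit genes as lists was not tested.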

How the data were processed

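Each library was 1 mouse, and genotype and replicate number come from the labels. Whether mice share a litter is not stated, so the limma p-values rest on the spread between these mice alone, with variances shared across genes. Per the labels' protocols, libraries were made with a stranded mRNA kit and 15 cycles of PCR. Cuffnorm 2.2.1 and Cufflinks 2.2.1, Bowtie2 2.2.3.0 and TopHat2 2.0.13, bcl2fastq 1.8.4 and the build mm9 appear in the submitters' processing notes; their roles, the annotation, the scaling between libraries and the treatment of reads with several matches are stated in no source used here. The authors deposited FPKM values for 23312 genes per library, per the file headers. The authors also deposited a comparison table that holds, per the file headers, each genotype's FPKM with a q-value and p-value for every gene; it was used only where named.

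FPKM values are not counts, so no count test was run. Values became log2(FPKM + 1), which understates the change of low genes, and the 11017 genes whose mean reached 1 FPKM were tested two-sided with limma 3.58.1 in R 4.3.3 (lmFit, eBayes with trend; 2 residual and 2.69 prior degrees of freedom), with Benjamini-Hochberg adjustment over all of them and calls at an adjusted p under 0.05. The procedure was tested on simulated data. Relative depth came from genes under 0.3 FPKM, as the ratio of values shared within 0.5% by most genes, and 9.61% to 13.3% of such genes held it. Precision from depth is therefore unknown. Coding windows of 50 bases came from the principal transcript of each gene in GENCODE M21, with every 10th window used for genes other than the members, and starts came from RefSeq. No protein table was used, so codons of the coding sequence stand for protein length. Files with mm9 coordinates and references on GRCm38 were never joined by position, and whether the mm9 starts count from 0 or 1 is not stated.

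The members, the gene lists and the places in the subunit were chosen with earlier results of these data known, so no list is independent evidence. Values per library are given for members that passed, the 3 with the highest level, the 3 with the largest log2 fold change and the only positive one among those tested; values of Rps3a1, Rps6, Rps13, Rps21, Rps25 and Rps29 were added after they were seen. From other lists, genes that passed are named, at most 4 by smallest p. Alternatives were other pseudocounts, filters, normalizations and variance models, a replicate block, removal of the coding length trend, leaving out each library and other member sets.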

Additional observations from a re-analysis of the deposited data

How the results depend on the processing

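The 7 members that fell kept a negative log2 fold change in all 14 alternative fits, but in most of these fits the sign could not change. Leaving out 1 library cannot reverse genes whose genotypes do not overlap. The filters, the variance models and the replicate block left the log2 fold changes as they were. In the 10 fits that kept all 4 libraries, 0 of the 27 tested members were called higher. The members called lower numbered 7 with a pseudocount of 0.1 or 5, with a minimum of 5 FPKM and with rescaling to equal median ratios, 8 with the coding length trend removed, and 9 with quantile normalization and with robust variances. In these last 3 fits 436, 461 and 515 genes were lower in all, against 361. With no filter, 0 members were lower, and 4 genes of 16296 were higher and 1 lower. Without the variance trend 2 members were lower, and 242 genes were higher and 69 lower. With the replicate block 9 members were lower (Rps25 and Rps3a1 added), and 456 genes were higher and 270 lower; replicates of the same number deviated with a correlation of 0.144 over 2 pairs, and no label pairs them. With 1 library left out, 0 members were lower in each case, their median lay between -0.68 and -0.43, and 2 to 18 genes were higher and 0 to 13 lower. These fits assume that the lone library of a genotype varies like the other genotype's. After the data were seen, 2 member sets were added. Of members with under 80% of windows shared, 2 of 7 were lower with a median of -0.52, and with the 4 further small-subunit genes 8 of 31 were lower. The ratio of small-subunit to large-subunit FPKM was 1.06 times as high in Cnot3 fl/fl as in Cnot3 +/+ libraries without Rps9, against 1.09 times with it. The causes of these shifts were not tested, apart from the number of genes or libraries that an alternative itself changes.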

Other observations

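Cnot3 +/+ replicate 1 was the high library for 2 of the least abundant members, Rps27a at 22.4 FPKM and Rps12 at 8.14 FPKM, whereas 22 of the 28 members were higher in Cnot3 +/+ replicate 2 than in replicate 1. Rps21 measured 91.4 and 95.4 FPKM in Cnot3 fl/fl mice, against 103.0 and 150.1 FPKM in Cnot3 +/+ mice. Rps25 measured 51.4 and 80.5 FPKM in Cnot3 fl/fl mice, against 89.6 and 122.1 FPKM in Cnot3 +/+ mice. Without Cnot3 +/+ replicate 2 their log2 fold changes were -0.14 and -0.47, against -0.41 and -0.69 with all 4 libraries.

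Among all 445 tested genes with over 50% of coding windows shared with another locus, 50 were lower and 3 higher in Cnot3 fl/fl, a median log2 fold change of -0.26, whereas among 8719 genes with no shared window 244 were lower and 596 higher. The small-subunit genes account for 7 of the 50.

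Of the 28 members, 6 lie on chromosome 7 in the files' mm9 coordinates, the chromosome that carries Cnot3. They are Rps3, Rps9, Rps13, Rps15a, Rps16 and Rps19, and the limma calls among them were Rps15a and Rps19.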
